A study of Mus musculus with 4 samples.

Results

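The genes described here move, store or sense zinc, iron and copper. They include the Slc30a (ZnT) family of zinc efflux or organelle loading and the zinc importers of the Slc39a (ZIP) family. The rest are a fixed set of metallothionein, ferritin, iron, copper and metal-sensing genes. Members were chosen by gene symbol, and only probe sets that the platform annotation ties to exactly 1 symbol were used. On the array 39 genes of 18193 met the rule, with 84 of 34945 such probe sets. The ferritin light chain gene Ftl1, also in the rule, was not analysed here because its probe sets carry several symbols. A gene was represented by its probe set with the highest mean log2 value. Of the 39 members, 30 passed the filter on dim probe sets and were tested, among 12558 genes tested in all.

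The study compared 4 arrays, 2 of non-pigmented and 2 of pigmented mouse melanocytes from skin, both labelled as of Balb/c background. The non-pigmented cells are homozygous for a point mutation in Tyr, which encodes tyrosinase, the first enzyme of melanin synthesis. The pigmented cells are labelled wild type, the mutation having been corrected. Both were cultured with fetal serum, 2-mercaptoethanol and the phorbol ester TPA. The labels do not say whether a line is 1 clone or whether the arrays of a line came from separate cultures. Signals are linear array intensities that the authors had scaled to a common level. Differences are on the scale log2(signal + 16), non-pigmented minus pigmented, with standard errors from limma, and the number of arrays limits their precision.

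Zinc, iron and copper are needed by many enzymes and are toxic in excess, so cells balance uptake, storage and export. Metallothioneins are small cysteine-rich proteins that bind zinc and copper, and the zinc-sensing factor MTF-1 switches on their genes and that of the zinc exporter Slc30a1 through short promoter elements. Iron enters through the transferrin receptor and the carrier Slc11a2, is stored in ferritin and leaves through ferroportin (Slc40a1), helped by ceruloplasmin (Cp), a copper-containing enzyme that oxidises iron. Copper enters through Slc31a1, and tyrosinase itself holds copper at its active site, loaded in the secretory pathway by the pump Atp7a.

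The promoter letters of 4 members are shown. These are the textbook MTF-1 targets Mt1, Mt2 and Slc30a1, and Cp. Among the 30 tested members Cp had the largest difference between the lines. Each run is the 250 bases before a RefSeq gene start (GRCm38.p6), all on the plus strand. Capitals mark the metal response element, searched as TGCACNC and TGCGCNC on both strands, with no overlap between the matches shown. The windows are chr8:94178839-94179088 for Mt1, chr8:94172368-94172617 for Mt2, chr1:191906531-191906780 for Slc30a1 and chr3:19956804-19957053 for Cp, which has 2 annotated starts and is shown for the first.
Mt1: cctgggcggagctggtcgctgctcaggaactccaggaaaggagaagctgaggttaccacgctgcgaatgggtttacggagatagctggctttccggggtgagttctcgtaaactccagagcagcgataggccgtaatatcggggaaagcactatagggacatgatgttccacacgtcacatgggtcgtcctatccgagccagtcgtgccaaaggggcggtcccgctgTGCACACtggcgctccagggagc
Mt2: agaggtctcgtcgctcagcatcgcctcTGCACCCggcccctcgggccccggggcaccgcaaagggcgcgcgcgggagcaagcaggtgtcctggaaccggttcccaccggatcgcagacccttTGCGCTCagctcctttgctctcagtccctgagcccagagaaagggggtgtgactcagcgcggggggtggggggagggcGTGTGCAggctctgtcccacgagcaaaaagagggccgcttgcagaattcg
Slc30a1: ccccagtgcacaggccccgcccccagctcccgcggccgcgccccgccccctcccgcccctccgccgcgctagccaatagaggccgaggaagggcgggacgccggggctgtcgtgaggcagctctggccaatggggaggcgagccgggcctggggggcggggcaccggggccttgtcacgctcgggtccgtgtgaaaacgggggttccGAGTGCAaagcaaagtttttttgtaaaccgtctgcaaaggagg
Cp: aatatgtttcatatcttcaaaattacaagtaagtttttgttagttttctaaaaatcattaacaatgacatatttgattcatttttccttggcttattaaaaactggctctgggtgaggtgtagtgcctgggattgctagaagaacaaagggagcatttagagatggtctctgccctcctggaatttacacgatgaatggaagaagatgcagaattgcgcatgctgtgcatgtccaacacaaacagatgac
Mt2 held 3 matches, Mt1 and Slc30a1 held 1 each and this Cp window 0. Mt1 had 2 further matches, and Mt2 and Slc30a1 had 1 each, in the 50 bases after the start, which are not printed. At least 1 match was present in 21.4% of all 32851 promoter windows of this length, and 3 or more in 1.26%. For the 46 windows of the members these shares were 39.1% and 4.35%. A gene with several windows has more chances to hold a match, which the counts by gene do not allow for. Of the 33 members with a window in the RefSeq table, 17 (51.5%) had a match in at least 1 window, against 23.8% of all 27025 genes. Entries were missing for Slc11a2, Slc30a8, Slc39a14, Slc39a4, Slc39a6 and Slc40a1. A match is a run of letters, not a shown binding site.

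The arrays differed in RNA integrity within each line. The 3′ to 5′ signal ratio of the Gapdh control was 0.903 and 20.2 on replicates 1 and 2 of the non-pigmented line, against 0.864 and 16.8 on those of the pigmented line. Replicates 1 form the intact pair and replicates 2 the pair with low 5′ signal. Tyr had signals of 214 and 67.2 on the non-pigmented arrays, against 17306 and 11698 on the pigmented arrays. The part of the point mutation in this RNA difference was not tested. Of 14 melanocyte markers, 10 were called lower in the non-pigmented line by limma (1.33% of all tested genes were), with a median difference of -4.32. Their summed signal was 19273 and 30160 on the non-pigmented and 174880 and 157565 on the pigmented arrays. The lineage factor gene Sox10 differed less, with 8268 and 8558, against 8602 and 10232 in pigmented cells. Markers of Schwann cells and neural crest progenitors, 9 in all, summed to 22761 and 27736 on the non-pigmented arrays. On the pigmented arrays the sum was 2561 and 3555. Of these markers 8 were tested and 5 called higher in the non-pigmented line (2.03% of all tested genes were). Without overlap, 6 of the 8 were higher in that line and 1 was lower (19.5% and 24.4% of all tested genes). Sums were 803 and 794 against 333 and 386 for 5 keratinocyte markers, 757 and 800 against 1648 and 1553 for 8 fibroblast markers, 1475 and 3218 against 1601 and 1347 for 8 immune markers, and 301 and 294 against 372 and 372 for 4 endothelial markers. No marker was listed at 0, and there is no background column to set a dim signal against.

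As a group the metal handling genes differed between the lines about as much as tested genes in general. By limma 0 of the 30 tested members passed an adjusted p of 0.05, where 3.36% of all tested genes did, and 4 of the 30 had an unadjusted p under 0.05 (13.8% of all genes). Once the fit held the integrity pair as a block, 1 member passed, Cp, which was higher in the non-pigmented line (7.04% of all genes passed that fit, 4.32% as higher). The median difference was -0.047 over the members and -0.068 over all tested genes (0.20 over the members with each array centred on its median), and the median absolute difference 0.38 and 0.46. An absolute difference of 1 or more was found in 6 of the 30 (20.2% of all genes). The 2 lines did not overlap in 11 members, 5 higher and 6 lower in the non-pigmented line, while 43.9% of all genes showed this, 19.5% higher and 24.4% lower. These shares are close to or below the background and are not a result about the members. An exact two-sided permutation test cannot go below 0.333 with 2 arrays a line.

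**Figure D1:**
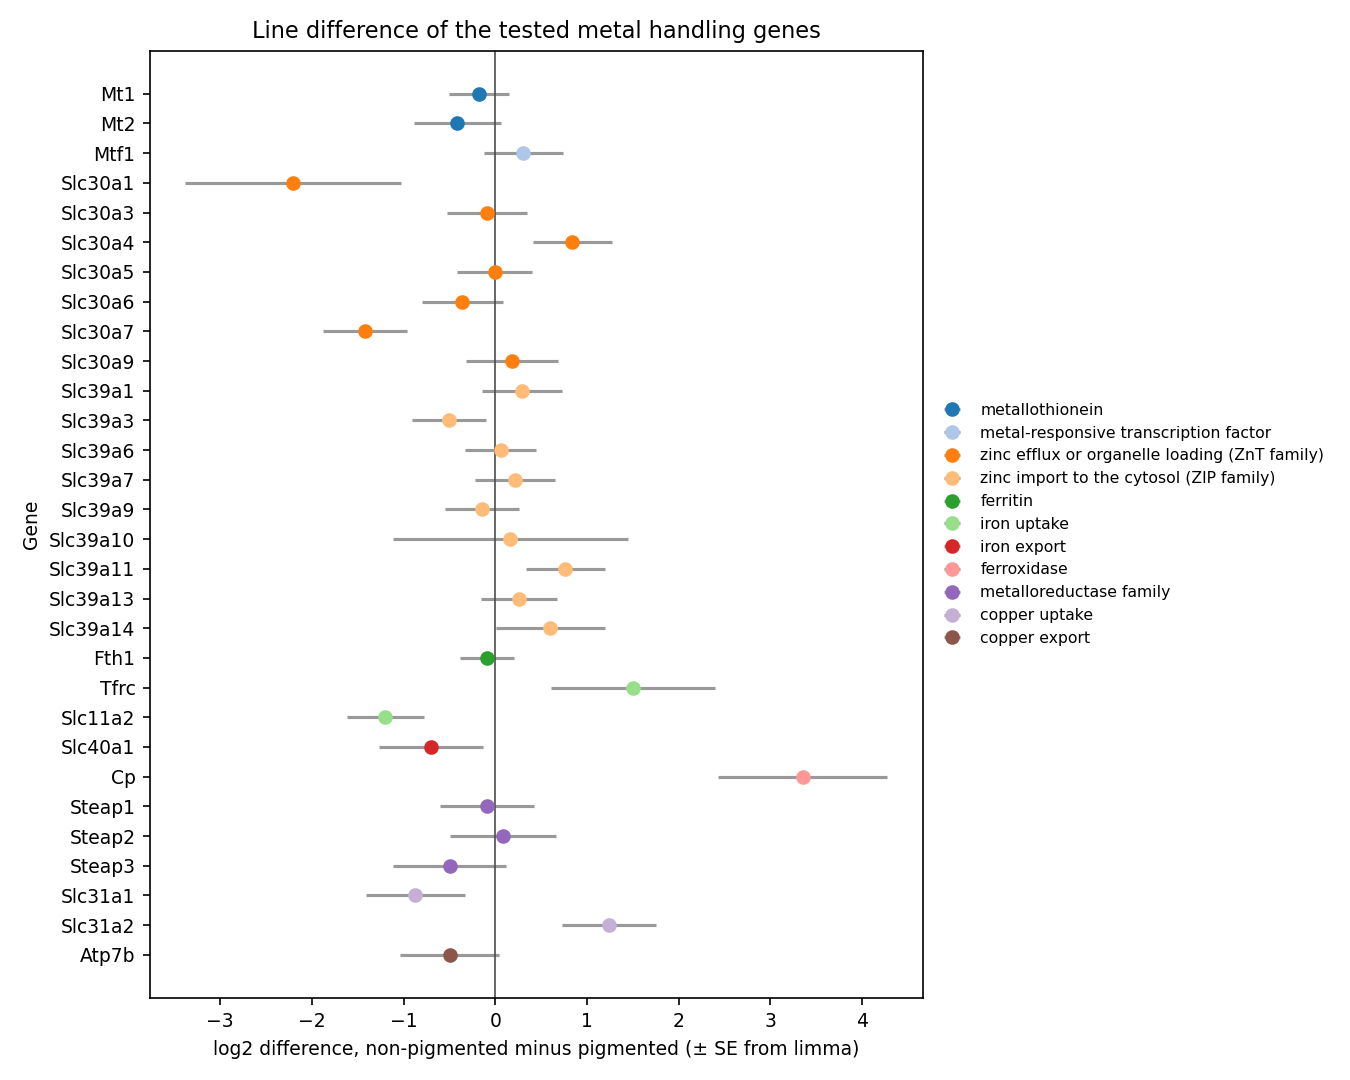
Log2 difference, non-pigmented minus pigmented, of the 30 tested metal handling genes in order of role, with bars of 1 standard error from limma. Cp lies at 3.35 and Slc30a1 at -2.20, and 24 genes lie within 1 of 0.

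Ceruloplasmin stood out among the iron genes. Its probe set with the highest mean read 1982 and 9608 on the non-pigmented arrays, against 208 and 808 on the pigmented arrays. Both non-pigmented values were above both pigmented ones, but the arrays of each line also lay far apart. The log2 difference was 3.35 ± 0.93, or 10.2-fold, with a limma adjusted p of 0.154. It was 3.16 within the intact pair and 3.55 within the low 5′ pair, and blocking on these pairs gave an adjusted p of 0.00584. Within the 2 dates in the titles it was 1.28 and 5.42, and the adjusted p with the date as a block was 0.117. Without non-pigmented replicate 2 the difference was 2.22 with an adjusted p of 0.434, and without pigmented replicate 2 it was 4.29 with an adjusted p of 0.0146. In cultures measured in bulk, more cells that make an RNA and more RNA per cell cannot be told apart.

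Cp is read by 8 probe sets, 6 of which share 1 target accession and so are not independent. All 8 had a higher mean in the non-pigmented line, and 7 passed the filter, each with no overlap between the lines (42.1% of all tested probe sets, 17.4% higher and 24.7% lower). In a fit over all 22341 single-symbol probe sets past the filter, 3 of the 7 were called, where 1.73% of all probe sets were (1.04% as higher and 0.689% as lower). Blocking on the integrity pairs brought this to 6 of the 7 (5.84% of all probe sets, 3.5% as higher). Probe set 1448734_at had 2006 and 2085 on the non-pigmented arrays, against 26.8 and 41.3 on the pigmented ones. The replicates of each line lay close together there, and the difference was 5.38 ± 0.46 with an adjusted p of 0.0139.

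Probe set 1417495_x_at had signals of 1880 and 2856 in the non-pigmented line, against 132 and 119 in the pigmented line. Its difference of 4.05 ± 0.47 had an adjusted p of 0.0207, and the suffix of its name marks probes that may bind other transcripts. The third called set, 1448735_at, read 875 and 3793 in non-pigmented cells, against 10.1 and 24.6 in pigmented cells, which gave 5.82 ± 0.78 on the log2 scale (adjusted p of 0.0289). Here, in 1448734_at and in 1417496_at the pigmented signals were below the signal of 70.7 used as the filter, so the sizes depend on the pseudocount. Of the 7 tested sets, 4 had a pigmented mean below the filter and passed it only through the non-pigmented arrays, 2 of the 3 called sets among them, so the counts of called or separated Cp sets are a description. Of the 3 sets above the filter in both lines, 1 was called, and all 3 with the integrity block. 1417496_at read 423 and 811 against 51.1 and 10.5 (adjusted p of 0.0581), and 1455393_at read 1168 and 4734 against 240 and 413 (adjusted p of 0.193). 1417497_at read 114 and 1112 against 75.9 and 4.93, with an adjusted p of 0.386. The untested set, 1441326_at, was dim on all arrays, with 8.54 and 68.8 in the non-pigmented and 5.47 and 26.1 in the pigmented line. Over the 7 tested sets the difference ran from 2.84 to 5.82, so the choice of probe set moved its size, not its direction. The summed signal of the Schwann cell and progenitor markers was higher on the same 2 arrays, though 1 of these markers was lower there without overlap. The immune marker sum was highest in non-pigmented replicate 2, where Cp was also highest in each of its probe sets. The part of these markers in the Cp difference was not tested.

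**Figure D2:**
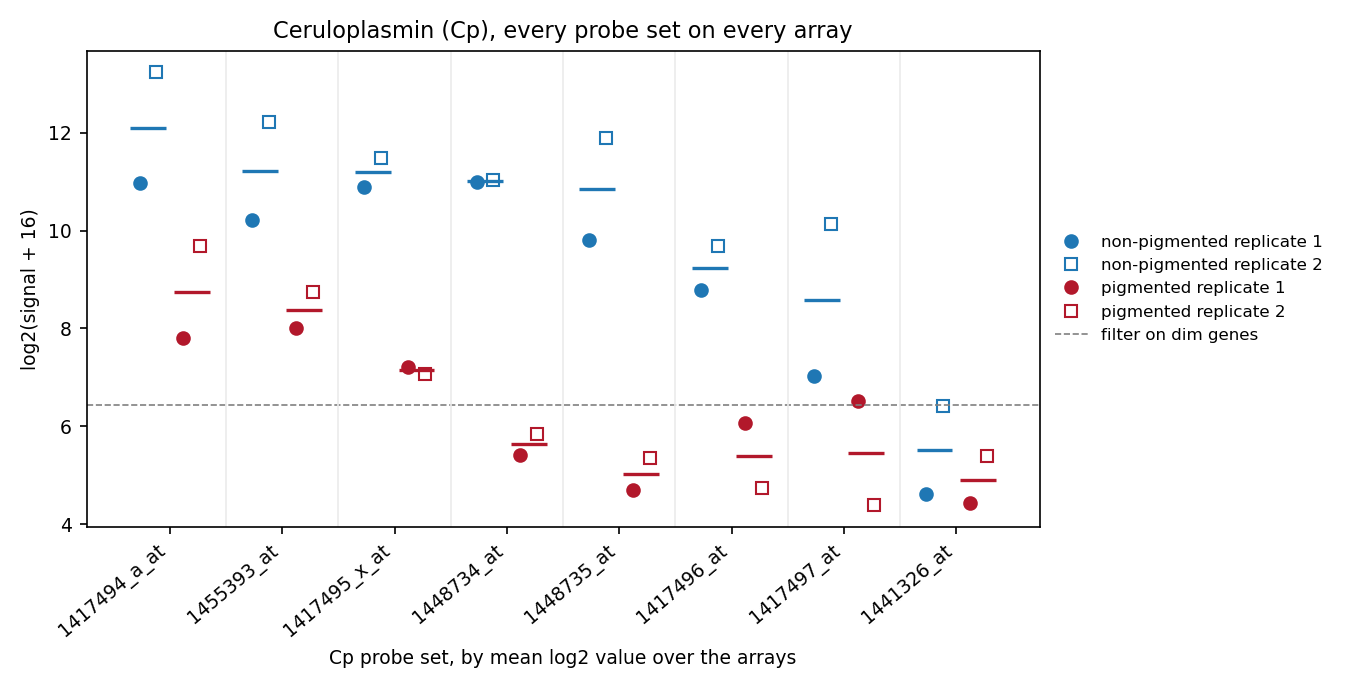
Log2(signal + 16) of the 8 Cp probe sets on each array. Blue points are the non-pigmented and red points the pigmented arrays, circles are replicate 1, open squares replicate 2 and short lines group means, and the dashed line is the filter at 6.44. In 7 probe sets both non-pigmented points lie above both pigmented points.

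The other iron genes had smaller differences, and none passed. Tfrc, the receptor that takes up transferrin-bound iron, read 4854 and 2980 on the non-pigmented arrays, against 3518 and 501 on the pigmented ones. Pigmented replicate 2 alone was low, and the lines overlapped. The difference was 1.50 ± 0.90 with an adjusted p of 0.558, or 0.46 in the intact and 2.54 in the low 5′ pair. Without pigmented replicate 1 it was 2.89 with an adjusted p of 0.0173, and without pigmented replicate 2 it was 0.11 with an adjusted p of 0.971. The second tested Tfrc set, 1422966_a_at, read 252 and 185, against 269 and 80.6, a difference of 0.48 with overlap. A further set below the filter read 85.2 and 37.2, against 23.4 and 36.6. The array's own 3′ control probe set for Tfrc, which was not tested, had 174 and 119 in non-pigmented and 68.9 and 77 in pigmented cells. Its 5′ and middle controls for Tfrc were dimmer and overlapped between the lines.

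Slc11a2 (DMT1) carries ferrous iron across the plasma and endosomal membranes, and its transcripts are known to end in alternative 3′ exons, 1 form bearing an iron-responsive element. Its main probe set, 1417584_at, read 386 and 338 on the non-pigmented arrays, against 943 and 763 on the pigmented arrays. Both non-pigmented arrays were lower, with close replicates, for a difference of -1.20 ± 0.42 and an adjusted p of 0.264. A second set, 1441709_at, read 33.6 and 74.1, against 232 and 288, a difference of -2.04. Its non-pigmented mean was below the filter, so it was tested only through its pigmented level and the size depends on the pseudocount. The 2 remaining sets did not show a lower non-pigmented level. 1426441_at had 561 and 237 in non-pigmented cells against 560 and 203 in pigmented cells, a difference of 0.11, and 1452078_a_at a difference of 0.35. In these sets the arrays divided by integrity pair rather than by line. The annotation used here does not say which 3′ end each probe set reads.

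Fth1, the ferritin heavy chain, read 15796 and 18782 on the non-pigmented arrays, against 15506 and 21707 on the pigmented arrays. The lines overlapped, and the difference of -0.09 ± 0.29 (adjusted p of 0.933) was positive when each array was centred on its median (0.15) or quantile normalised (0.088). Its second tested set had 14255 and 13530, against 15535 and 9968, and 0.16. Slc40a1, the iron exporter ferroportin, had 227 and 222 in the non-pigmented line, against 222 and 623 in the pigmented line. Only pigmented replicate 2 stood apart, and the difference was -0.70 ± 0.57 (adjusted p of 0.698) and 0.014 without that array. Its second probe set read 95.6 and 108, against 138 and 171, which did not overlap. The Steap genes, whose family reduces iron and copper at membranes, had main-set differences of -0.09 (Steap1), 0.09 (Steap2) and -0.50 (Steap3), all with overlap. The other tested Steap2 sets went the other way from its main set. They were 1442359_at (-0.66) and 1438773_at (-1.13), both without overlap, and 1446071_at (-0.74), with overlap and a non-pigmented mean below the filter. Steap1 and Steap2 are neighbours in the genome. Their main sets were both lower on the low 5′ arrays, with integrity differences of -0.72 and -0.98.

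**Figure D3:**
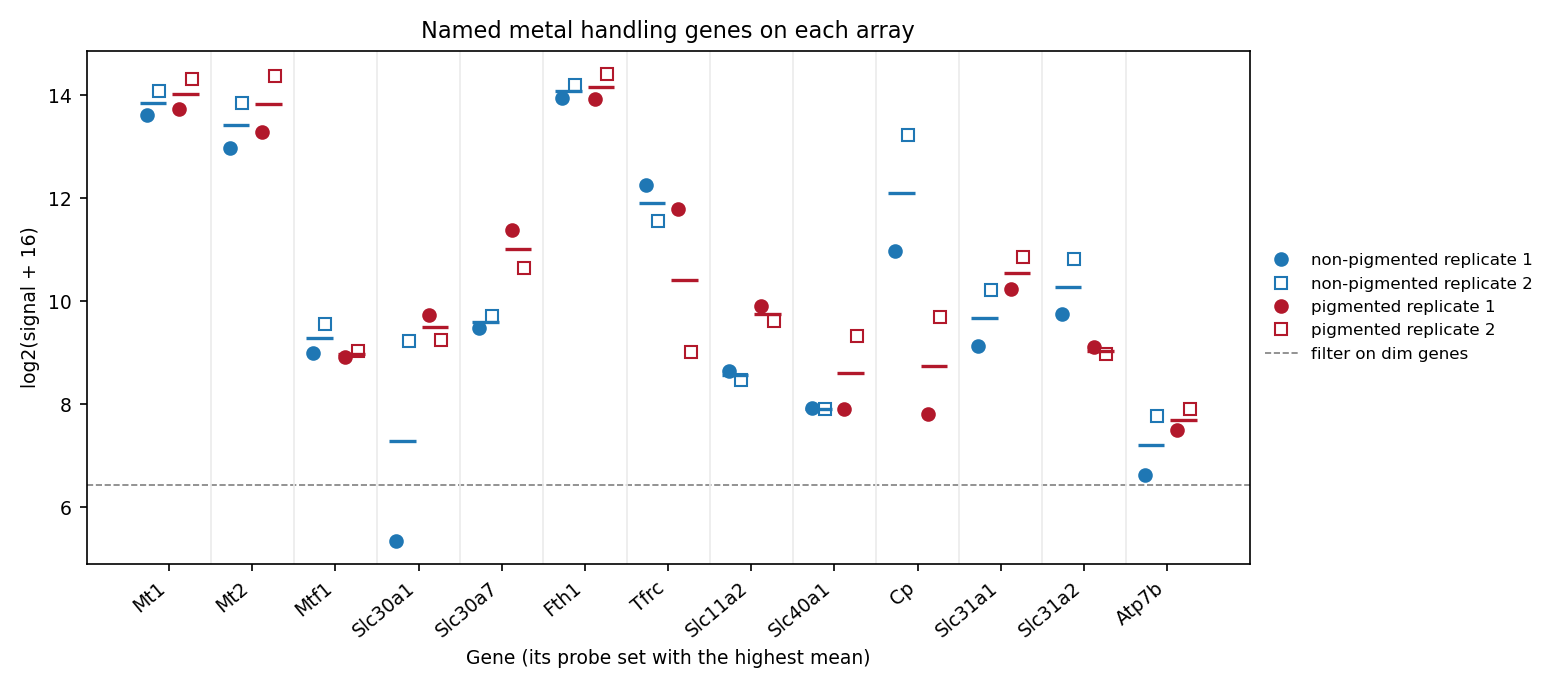
Log2(signal + 16) of 13 named metal handling genes on each array, from the probe set with the highest mean, in order of role. Blue points are non-pigmented and red points pigmented arrays, and circles are replicate 1, open squares replicate 2 and short lines group means. Cp, Slc31a2, Slc11a2, Slc30a7, Slc31a1 and Slc30a1 show no overlap between the lines, while Slc30a1 has 1 non-pigmented array far below the rest.

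No zinc storage gene passed the test, and the sets of Mt1 and Mt2 with the highest mean overlapped between the lines. Mt1 read 12497 and 17270 on the non-pigmented arrays, against 13594 and 20312 on the pigmented arrays, and Mt2 read 8003 and 14735, against 9937 and 21021. In both genes the low 5′ array of a line was the higher. The differences were -0.18 ± 0.33 for Mt1 (adjusted p of 0.877; 0.067 with each array centred on its median) and -0.41 ± 0.48 for Mt2 (adjusted p of 0.796). The suffix of the first Mt1 set, 1422557_s_at, marks probes shared with other transcripts. Mt1 has a second probe set, 1451612_at, without that mark, with 16.1 and 130 in non-pigmented and 163 and 593 in pigmented cells. There the difference was -2.27 ± 0.94, with a limma adjusted p of 0.428 in the fit over probe sets and 0.0399 once integrity pairs were blocked. Within the 2 dates in the titles it was -4.25 and -0.30. The non-pigmented mean of this set was below the filter, so it was tested only through its pigmented level. Its size depends on the pseudocount, and its call with the block is a description. The 2 sets of Mt1 thus disagree in size. Mt3, a metallothionein best known from brain, lay below the filter, with 67.9 and 42.3 against 55.6 and 11.3. Mt1, Mt2 and Mt3 lie next to each other in the genome.

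Mtf1, the gene of the zinc-sensing factor, read 494 and 739 on the non-pigmented arrays, against 467 and 505 on the pigmented arrays. The lines overlapped, and the difference was 0.31 ± 0.43 with an adjusted p of 0.840. Of its other tested sets, 1428979_at gave 0.61 and 1429170_a_at -0.93, so the sets did not share a direction.

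Of 10 genes of the Slc30a family, 7 were tested and none passed, with 2 positive and 5 negative differences and a median of -0.09. Slc30a1, which moves zinc out across the plasma membrane, read 24.8 and 581 on the non-pigmented arrays, against 832 and 594 on the pigmented arrays. The difference of -2.20 ± 1.18 (adjusted p of 0.50) came from non-pigmented replicate 1. It was -0.27 with an adjusted p of 0.996 without that array, and -4.14 with an adjusted p of 0.0199 without non-pigmented replicate 2. The second Slc30a1 set read 141 and 478, against 242 and 298, a difference of -0.03.

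Slc30a7, which loads zinc into the Golgi and vesicles, read 700 and 817 in non-pigmented cells, against 2651 and 1581 in pigmented cells. The lines did not overlap, and the difference was -1.42 ± 0.46 with an adjusted p of 0.229. Its other set read 1128 and 1139, against 1065 and 529, 0.58 in the other direction on the log2 scale. Slc30a4, which fills vesicles with zinc, had 2125 and 1471 against 966 and 995, also without overlap, for a difference of 0.84 (adjusted p of 0.481). Slc30a3, Slc30a5, Slc30a6 and Slc30a9 had differences from -0.36 to 0.18, all with overlap. Slc30a2, Slc30a8 and Slc30a10 were below the filter. Slc30a2 read 89.2 and 57.2 against 20.5 and 30.5, and was not tested.

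Among the 14 zinc importers of the Slc39a family 9 were tested, with 7 positive and 2 negative differences, a median of 0.21 and a range from -0.50 to 0.76, and none passed. Centring each array on its median moved the median of all genes by 0.24, so small positive or negative differences have no firm sign. Slc39a11 read 877 and 1263 on the non-pigmented arrays, against 630 and 599 on the pigmented ones, a difference of 0.76 (adjusted p of 0.528). Slc39a14, a plasma membrane carrier of zinc and also of iron and manganese, read 2106 and 5023, against 1494 and 3059, a difference of 0.60 with overlap (adjusted p of 0.754). Its second tested set had 531 and 729 against 249 and 328, without overlap, and 1.08. Slc39a13 (0.26) was higher and Slc39a3 (-0.50) and Slc39a9 (-0.14) were lower without overlap. The second tested Slc39a3 set, 1417881_at, went the other way, with 440 and 372 against 404 and 253, or 0.32 with overlap. Slc39a1 (0.29), Slc39a6 (0.06), Slc39a7 (0.21) and Slc39a10 (0.17) overlapped. Slc39a2, Slc39a4, Slc39a5, Slc39a8 and Slc39a12 were below the filter, among them Slc39a4, the intestinal zinc importer, with 11.4 and 47.5 against 120 and 73.0.

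Neither copper uptake gene passed the test, and the direction of Slc31a1 depended on the probe set. Slc31a1 (CTR1), the copper importer of the plasma membrane, read 542 and 1175 on the non-pigmented arrays, against 1186 and 1835 on the pigmented arrays. The lines were separated by a narrow gap, and the difference was -0.87 ± 0.54 with an adjusted p of 0.573. Its second set, 1455285_at, went the other way, with 680 and 591 against 476 and 362, a difference of 0.59 without overlap, and the mean of both sets gave -0.14. Slc31a2 (CTR2), its endosomal relative, read 841 and 1791 in non-pigmented cells, against 538 and 484 in pigmented cells. No values overlapped, and the difference was 1.24 ± 0.51 with an adjusted p of 0.358. The second Slc31a2 set had 371 and 164 against 202 and 8.51, a difference of 1.85 with overlap. Its pigmented mean was below the filter, so it was tested only through its non-pigmented level and the size depends on the pseudocount. Atp7b, a copper pump best known from liver, had 82.7 and 202 against 163 and 223, or -0.50 ± 0.54 on the log2 scale (adjusted p of 0.781).

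Probe sets of 1 gene did not always agree in sign. Of the 18 members with more than 1 tested probe set, 10 had the same sign in all of them and 8 did not. No share over all genes is given beside these counts, so they are a description and not a trait of the members. The low 5′ pair consists of the second replicates and the intact pair of the first, so integrity and any other difference between them cannot be told apart. In 15 of the 30 the difference between these pairs was larger than that between the lines, a share close to the 49.2% of all tested genes, and in 5 of the 30 it was at least 1 (16.9% of all genes). Slc39a10, a plasma membrane zinc importer, read 1361 on the intact and 125 on the low 5′ non-pigmented array, against 1016 and 134 on the pigmented arrays. Its integrity difference was -3.04 and its line difference 0.17 ± 1.29. Tfrc had -1.74, Slc39a14 1.14 and Cp 2.07 for this difference, with the same sign in both lines. Slc30a1 had 1.70, which came from non-pigmented replicate 1, as the signs in the 2 lines were opposite.

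**Figure D4:**
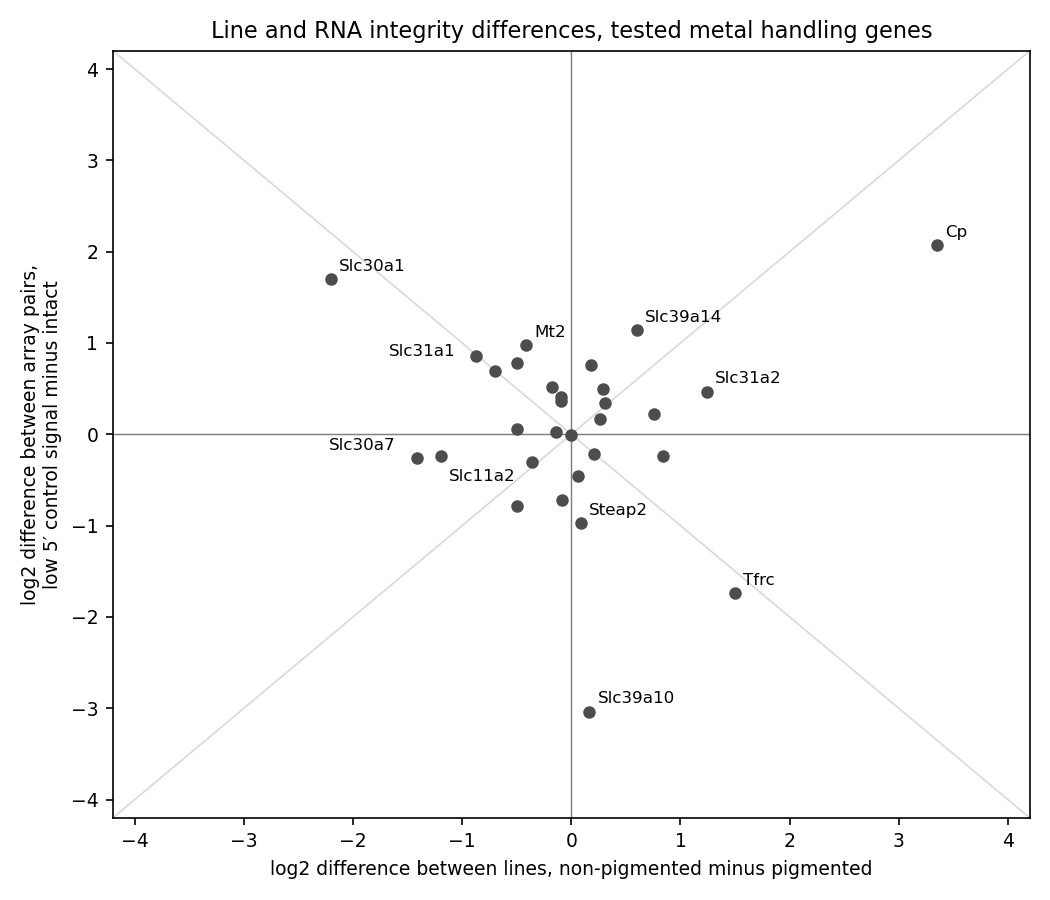
Each point is 1 of the 30 tested metal handling genes, with the log2 difference between the lines on the x axis and that between the low 5′ and the intact pair on the y axis, and grey diagonals where both are equal in size. Cp (3.35 and 2.07) lies on the line side, and Slc39a10 (0.17 and -3.04) on the integrity side.

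Genes around these pathways were read from 4 lists, chosen with earlier results of these data known. Of 14 tested genes of iron sensing, storage turnover and uptake, 2 were higher in the non-pigmented line, 0 lower and 12 did not pass (2.03% of all genes were called higher and 1.33% lower), with a median of -0.05. Lcn2, a lipocalin that binds iron-carrying siderophores, read 4388 and 15745 on the non-pigmented arrays, against 35.0 and 86.8 on the pigmented ones (6.85 ± 0.72, adjusted p of 0.00847). Its pigmented mean was below the filter, so Lcn2 was tested only through its non-pigmented level and the size of the difference depends on the pseudocount. Lrp1, an endocytic receptor that also takes up heme bound to hemopexin, read 3837 and 4977, against 63.7 and 206 (5.04 ± 0.59, adjusted p of 0.0111). Aco1 and Ireb2, the iron regulatory proteins that bind iron-responsive elements, were singled out after their values were seen. Aco1 had 3765 and 5304 against 4558 and 4647 (-0.04), and Ireb2 954 and 1129 against 1507 and 1571 (-0.56, adjusted p of 0.650).

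In the heme list 1 of 14 tested genes was higher and 0 lower, with a median of 0.05. This was Abcg2, an exporter of porphyrins and drugs, with 3446 and 2986 in non-pigmented and 681 and 564 in pigmented cells (2.34 ± 0.41, adjusted p of 0.0387). Of 15 genes of mitochondrial iron and iron-sulphur clusters limma called 0, while 2 had an unadjusted p under 0.05 (13.8% of all genes did). The median over the 15 was -0.29. The smallest p-values were those of Hscb, a cochaperone of cluster transfer, with 798 and 701 against 1759 and 1983 (-1.30 ± 0.41, adjusted p of 0.214), and Lyrm4, a subunit of the cysteine desulfurase complex, with 355 and 237 against 677 and 659 (-1.16 ± 0.43, adjusted p of 0.302).

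Of 16 tested copper chaperones, pumps and enzymes, 0 were higher and 1 lower, Tyr itself (-6.69 ± 0.60, adjusted p of 0.00618), with a median of -0.29. Blocking on the integrity pairs added 2 calls, both higher in the non-pigmented line (4.32% of all genes were called higher in that fit). Loxl3, a lysyl oxidase relative that uses copper, read 6466 and 4834 on the non-pigmented arrays, against 1577 and 978 on the pigmented arrays (2.16, adjusted p of 0.0628, and 0.0126 with the block). Sod3, the extracellular superoxide dismutase, read 1547 and 384, against 446 and 29.1 (2.45, adjusted p of 0.451, and 0.0390 with the block). For Sod3 the lines overlapped and the integrity difference was -2.66. Within the 2 dates in the titles its line difference was 5.11 and -0.21. Atp7a, singled out after its values were seen, had 2155 and 3061 in non-pigmented and 2391 and 2844 in pigmented cells, a difference of -0.02 ± 0.41.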

How the data were processed

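RNA of 4 mouse melanocyte samples was measured on 1 array each. The deposited intensity values are linear, made with Affymetrix Expression Console per the submitters' processing notes. The version and the algorithm that summarised the probes are not given in the sources used here. The mean of each deposited column after trimming 2% of probe sets at either end was 500. Of 45101 probe sets, 64 controls were left out, and 34945 of the rest had 1 gene symbol, 932 several and 9160 none. Through the Entrez number 34741 matched the RefSeq table, with 0 symbols changed. Genes whose mean log2 lay below 6.44, the 40th percentile over probe sets, were not tested.

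Log2(signal + 16) was tested with limma 3.58.1 under R 4.3.3, using lmFit and trended eBayes. Benjamini-Hochberg adjustment ran over all 12558 genes, and an adjusted p under 0.05 counted as a call. Without a statement that arrays came from separate cultures, the p-values reflect the spread of these samples alone, and that spread may be technical. Titles carry 2 dates, each shared by 1 array of either line. Deviations from the group means of same-date arrays correlated at -0.51, and those of integrity pairs (Gapdh 3′ to 5′ ratio over 3 or not) at 0.51. With 2 arrays a line these values mirror each other. Alternatives were 2 other normalizations, filters, pseudocounts of 1 and 64, other choices of probe set and variance model, both blocks, and leaving out each array. The fits over all probe sets were added after the data were seen. The code was tested on simulated arrays.

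Named members were those called with or without the integrity block, those without overlap and with an absolute difference of at least 1, and 12 chosen by role (Ftl1 among them). From each related list the called genes, or else the 2 with the smallest p, were named, and others are marked in the text or stand for their role. Members, lists and alternatives were chosen with earlier results of these data known. Promoter sequences are from RefSeq (GRCm38.p6). Plots were made in Python 3.11.15 with matplotlib 3.10.9.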

Additional observations from a re-analysis of the deposited data

How the results depend on the processing

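The count of metal handling genes called higher, 0 in the main setting, was 1 (Cp) with the integrity pair as a block, with a gene's probe sets averaged, in the fit over probe sets, and in that fit with the integrity block. The count called lower, also 0, was 1 only in the last of these (the second Mt1 set). That set passed the filter only through its pigmented arrays. Leaving out single arrays gave 0 to 1 in either direction: Cp was called without non-pigmented replicate 1 or pigmented replicate 2, Tfrc without pigmented replicate 1, and Slc30a1, as the lower gene, without non-pigmented replicate 2. The 422 genes called in all became 884 with the integrity block, 1304 probe sets with that block in the fit over probe sets, and 234 to 772 without single arrays. Members with no overlap numbered 9 to 10 higher and 9 to 13 lower without single arrays, where fewer arrays must be separated, and 3 lower either with each array centred on its median or with a gene's probe sets averaged. The median difference, -0.047, was 0.20 after that centring, which moved the median of all genes by 0.24, and -0.066 to 0.088 without single arrays.

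Cp was positive in all 16 alternatives to its fit over genes (2.22 to 4.49, adjusted p from 0.00584 to 0.434). Mtf1, Slc11a2, Slc30a1, Slc30a7, Slc31a1, Slc31a2 and Tfrc also kept their sign in all 16, but not their size: with probe sets averaged Slc30a7 was -0.42 and Slc31a1 -0.14, and without 1 array Mtf1 was as low as 0.023 and Tfrc 0.11. Fth1 turned to 0.088 with quantile normalization, 0.15 with centring and 0.034 with the mean of probe sets, and Mt1 to 0.067 with centring. Mt1, -0.18 in the main setting, was -1.22 with its probe sets averaged and -2.27 with gene-unique probe sets only. Without single arrays Fth1 ran from -0.33 to 0.15, Mt1 from -0.47 to 0.11, Mt2 from -0.95 to 0.13, Atp7b from -1.07 to 0.076 and Slc40a1 from -1.41 to 0.014. The cause of these turns was not tested. With the title date as a replicate block 0 members and 392 genes were called. The same dates are the only pairing in the labels, and the block changed no call among the named members. An array that stands alone for its line was assumed to vary like the other line. No background value came with the signals, so values below 70.7 carry no detection call.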
